A study of Saccharomyces cerevisiae with 20 samples.

Results

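Assembly of the mitochondrial respiratory chain and of ATP synthase depends on nuclear genes whose products do not end up in the finished complexes. The transcripts of 42 such genes were followed, chosen by name as known assembly factors and gene-specific mitochondrial translation factors of cytochrome c oxidase, complex III and ATP synthase, out of 5486 protein-coding genes with a probe set of their own on the array. The strain was *Saccharomyces cerevisiae* CEN.PK113-7D, a prototrophic haploid laboratory strain, so that all groups shared 1 genotype and no gene was deleted. Aerobic batch cultures, sparged with air, were sampled in exponential phase, late exponential phase, at the diauxic shift, in the post-diauxic phase and in early and late stationary phase (SP). Anaerobic batch cultures, sparged with nitrogen, were sampled in exponential phase, at the end of exponential phase and in early and late SP. Each of the 10 conditions was represented by 2 independent cultures and hence 2 arrays, 20 arrays in all. By the labels, the same 2 batch cultures of a regime were sampled in each of its phases. All cultures grew at 30°C on 20 g/L glucose, but only the anaerobic medium was supplemented, with Tween 80 at 420 mg/L and with 10 mg/L of ergosterol, dissolved in ethanol. What these supplements did and what the absence of oxygen did cannot be told apart.

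Cytochrome c oxidase has 3 core subunits, Cox1, Cox2 and Cox3, that are made inside mitochondria, and the same holds for cytochrome b of complex III. Each of their mRNAs has its own translational activators, which are encoded in the nucleus. Newly made subunits are inserted into the inner membrane, receive heme a and copper, and are held by chaperones until the nuclear-encoded subunits join. ATP synthase likewise needs chaperones for its catalytic head and for the membrane subunit Atp6. Anaerobic yeast has no use for electron transport to oxygen, whereas aerobic yeast grows by respiration on ethanol after the diauxic shift.

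Every one of the 42 genes had exactly 1 probe set, and all 42 passed the filter on low signals. Signals are linear array units on a scale common to all arrays, and a change in total mRNA per cell, like a change in the number of cells sampled, cannot be told apart from a change of other transcripts. Signals below 12 were set to 12. Of the 42 genes, 35 were never below 12, whereas CBP1, CBP2, PET122, PET309, ATP10, MSS2 and COA2 were on at least 1 array. A difference was called at an adjusted p below 0.05 (limma, adjusted over 6067 probe sets) and a fold of at least 2, and all log2 differences are given as the condition named first minus the other. Standard errors (SE) come from the fit over all 20 arrays, with n = 2 cultures per condition.

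The labels were checked with genes known to respond to oxygen. AUS1, a sterol importer, was at 34.2 to 99.6 on the 12 aerobic arrays and at 1261 to 1829 on the 8 anaerobic arrays. DAN1, a cell wall mannoprotein gene of anaerobic cells, was at or below 12.1 on 7 aerobic arrays and at 5140 to 9192 on the anaerobic arrays. The other 5 aerobic arrays, all of culture 2, had DAN1 signals of 159.6 (exponential phase), 359.1 (diauxic shift), 493.5 (post-diauxic phase), 359.3 (early SP) and 930.1 (late SP). These 5 arrays thus stood between the aerobic and anaerobic levels for this gene. The same held for TIR1, another anaerobic cell wall gene. It was at 862.7 to 2369 on these 5 arrays and at 62.1 to 294.3 on the other 7 aerobic arrays. ANB1, a gene of anaerobic cells, was also higher in culture 2 than in culture 1 in these phases. CYC7, a low-oxygen isoform of cytochrome c, was lower in aerobic cultures only in early and late SP by the calls described above. Comparisons are also given without these 5 arrays where that moved a count by more than 1.5 times. In exponential phase, aerobic culture 2 was also lower than aerobic culture 1 for 35 of the 42 assembly and translation factors, with a median log2 difference of -0.75, against -0.09 over all probe sets tested. In the other 9 conditions this median lay between -0.07 and 0.32.

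**Figure D1:**
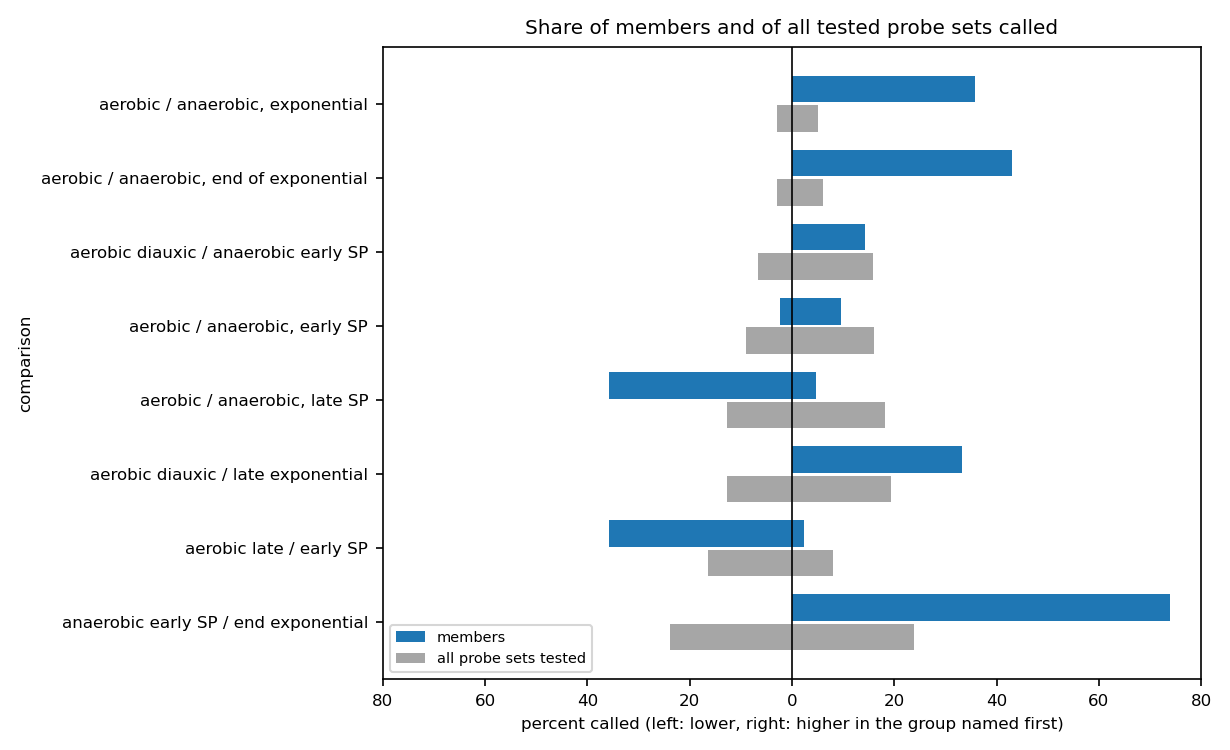
Percent of the 42 assembly and translation factors (blue) and of all 6067 probe sets tested (grey) called in 8 comparisons, drawn to the right where higher and to the left where lower in the condition named first. The largest share of the factors, 73.8%, was higher in anaerobic early SP than at the end of anaerobic exponential growth. Relative to anaerobic cultures, the called factors were mostly higher in aerobic exponential phase and mostly lower in aerobic late SP.

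During growth on glucose, the factors were more abundant in aerobic cultures. In exponential phase 15 of 42 (35.7%) were higher in aerobic than in anaerobic cultures and 0 were lower (limma, 29 at an unadjusted p below 0.05), where 5.08% of all probe sets were higher and 2.88% lower. The median log2 difference of the 42 was 0.79, against 0 over all probe sets. At the end of exponential phase, with aerobic late exponential cultures set against anaerobic cultures, 18 of 42 (42.9%) were higher and 0 lower (limma, 30 at an unadjusted p below 0.05), against 6.05% higher and 3% lower over all probe sets. These arrays are different from those of the exponential phase comparison, but by the labels they come from the same batch cultures. All 15 genes called in exponential phase were among the 18, a list that holds 42.9% of all 42 genes. The exponential phase count depended on the culture that stood apart. It was 24 without aerobic culture 2 of exponential phase and 8 without aerobic culture 1. In fits of only the arrays compared, which estimate the spread from 2 cultures per group, the counts were 0 in exponential phase and 4 at the end of it.

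COX17, COX15 and COA2 had the largest differences in exponential phase. COX17 encodes the small copper chaperone that hands copper to Sco1 and Cox11. Its signal was 468.4 and 300.6 in aerobic exponential cultures, against 83.2 and 97.4 in anaerobic ones, a log2 difference of 2.06 (SE 0.20, adjusted p = 3.25e-06 from limma). COX15, whose product carries out the last step of heme a synthesis, was at 1655 and 938 in aerobic exponential cultures and at 320.6 and 271.5 in anaerobic ones (log2 difference 2.08, SE 0.23, adjusted p = 1.38e-05). In both genes the lower aerobic culture was still above the higher anaerobic one. COA2, which acts with Shy1 in the maturation of Cox1, gave 190.7 and 61.1 in aerobic cultures, while both anaerobic cultures lay below 12, so that it was at least 9.0-fold higher in aerobic cultures (adjusted p = 2.97e-05). COA2 stayed below 12 at the end of anaerobic exponential growth, against 110.8 and 190.4 in aerobic late exponential cultures, at least 12.1-fold (adjusted p = 5.73e-06).

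At the end of exponential phase, CBP6 and ATP12 came next to COA2. CBP6, which with Cbp3 binds the mitochondrial ribosome and newly made cytochrome b, was at 197.9 and 227.9 in aerobic late exponential cultures, against 47.9 and 49.7 in anaerobic ones (log2 difference 2.12, SE 0.30, adjusted p = 0.000113). ATP12, a chaperone for the alpha subunit of the ATP synthase head, was at 154.9 and 204.5 in the aerobic cultures and at 37.3 and 49.7 in the anaerobic ones (log2 difference 2.05, SE 0.34, adjusted p = 0.000465). The aerobic and anaerobic cultures did not overlap in either gene. The other called genes of both growth phase comparisons served all 3 complexes. They were COX23, a relative of COX17, the heme a gene COX10, and COX14, COA3 and SHY1, which act on newly made Cox1, for the oxidase, CBP3, CBP4 and BCS1 for complex III, and ATP11 and ATP23 for ATP synthase. COX11, PET117 and PET191 were called only at the end of exponential phase, with log2 differences of 1.01, 1.51 and 1.18 there and 0.73, 1.04 and 0.96 in exponential phase, and the difference between the phases was not tested. Both heme a enzymes and both later complex III factors were called, but none of the 4 factors for Cox2 and none of the 3 for COX3 translation was called in these comparisons. Median log2 differences in exponential phase and at its end were 0.42 and 0.47 for the Cox2 factors and 0.28 and 0.22 for the COX3 factors. MSS2 lay below 12 on all anaerobic arrays of these phases, as did most signals of PET122, so the floor limited what could be called.

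**Figure D2:**
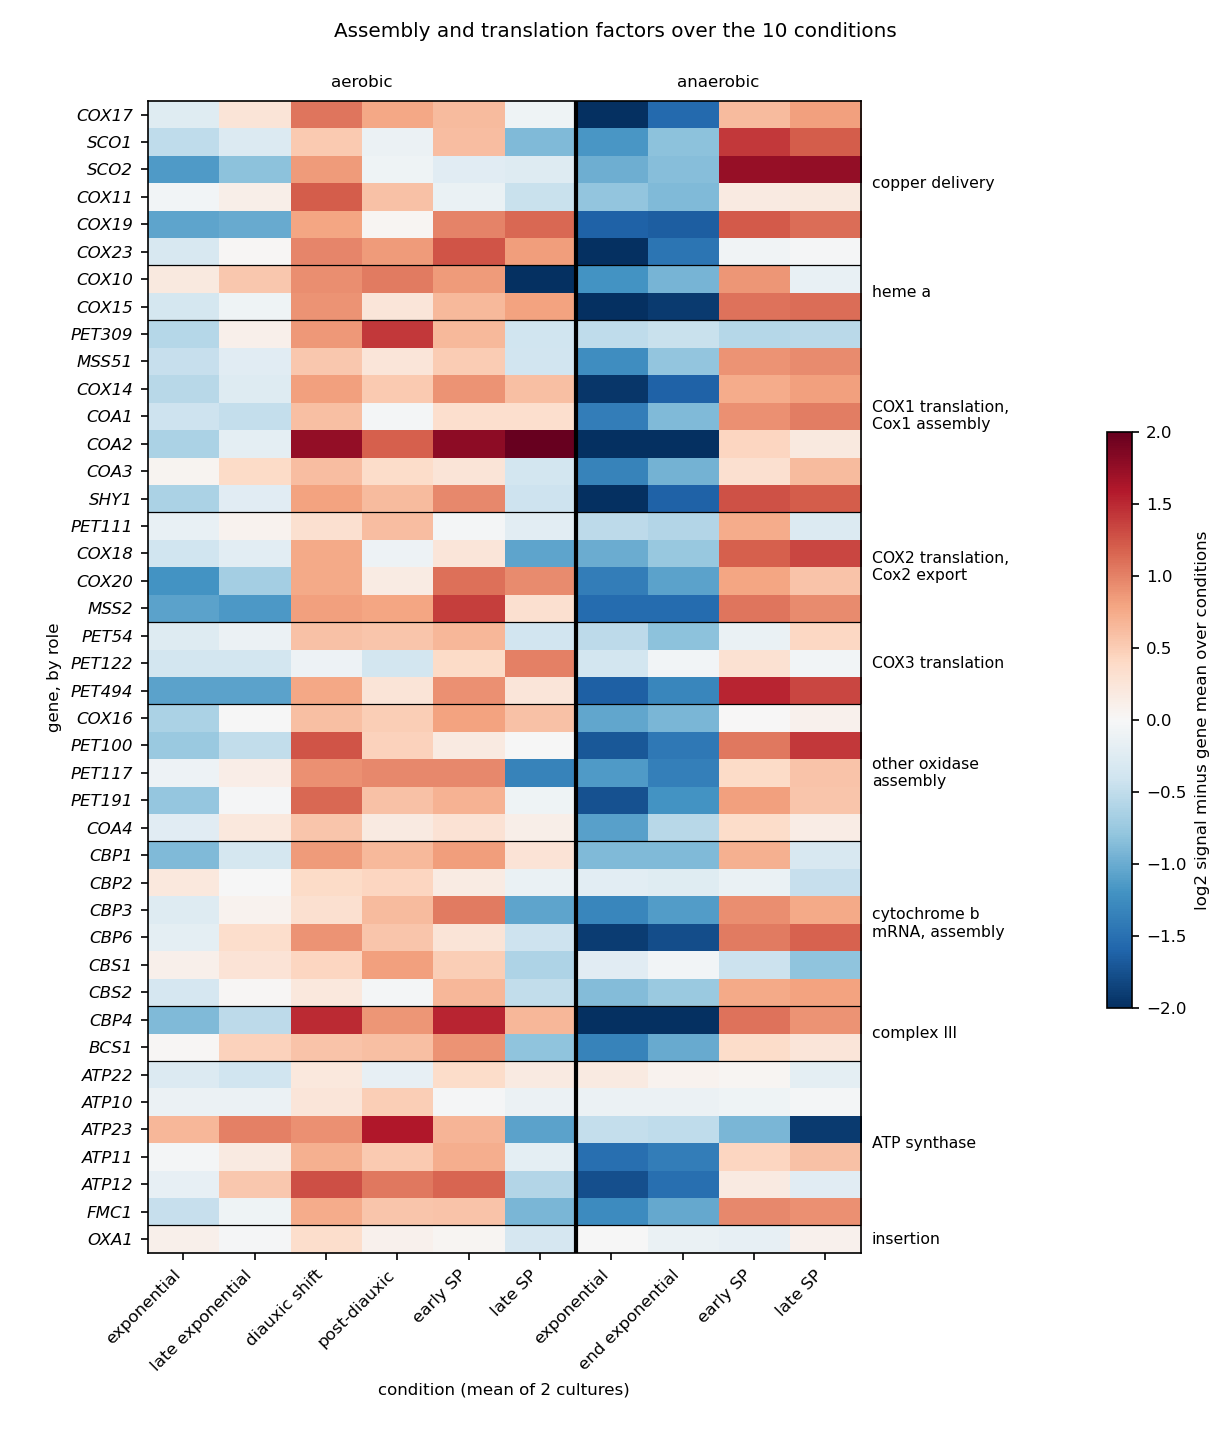
Mean log2 signal (2 cultures) of each of the 42 genes in each condition, relative to the mean of that gene over the 10 conditions, with genes grouped by role, aerobic conditions on the left and anaerobic ones on the right. Median values were -1.25 and -0.94 in the anaerobic growth phases and 0.73 and 0.58 in anaerobic early and late SP, while the aerobic medians ran from -0.35 in exponential phase to 0.77 at the diauxic shift and -0.20 in late SP.

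Little moved within the growth phase of either regime. No member was called between aerobic late exponential and exponential phase, where limma called 0% of all probe sets higher and 0% lower, and 5 members had an unadjusted p below 0.05. Without aerobic exponential culture 1 that count was 6. No member was called between the end of anaerobic exponential growth and exponential phase either (4 at an unadjusted p below 0.05 in limma), where 0.412% of all probe sets were higher and 0.0659% lower.

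Entry of anaerobic cultures into SP gave the most calls of the 14 comparisons. Of the 42, 31 (73.8%) rose in early SP relative to the end of exponential phase and 0 fell, with 34 at an unadjusted p below 0.05, where 23.9% of all probe sets were higher and 23.8% lower. The median log2 difference of the members was 1.77 and that of all probe sets 0. COA2 rose most. It was at 216.0 and 232.7 in anaerobic early SP, with both end exponential cultures below 12, a rise of at least 18.7-fold (adjusted p = 2.09e-07 from limma). CBP4, a complex III assembly factor that joins after Cbp3 and Cbp6 have bound cytochrome b, was at 356.1 and 390.2 in early SP, against 29.1 and 42.4 at the end of exponential phase (log2 difference 3.41, SE 0.35, adjusted p = 8.2e-07). COX15 reached 3333 and 3413, against 415.2 and 428.5 (log2 difference 3.0, SE 0.23, adjusted p = 4.85e-08). The early SP cultures of these 3 genes lay far above those of the end of exponential phase, with close duplicates.

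Genes of every role but membrane insertion took part in this rise. All 6 copper delivery genes rose, with log2 differences from 1.07 (COX11, which carries copper to Cox1) to 2.88 (COX19, a cysteine-rich protein of the intermembrane space). Both heme a enzymes rose, COX10 by 1.81 and COX15 by 3.0. Among the 7 factors for COX1 mRNA translation and early Cox1 assembly, 6 rose, and the exception was PET309, the COX1 translational activator, which was at 6.4 and 10.6 in early SP and 9.6 and 14.4 before it. All 4 factors for Cox2 rose, namely the COX2 translational activator PET111 (1.34), COX18 (1.96), which exports a domain of Cox2 across the membrane, its partner MSS2 (at least 6.11-fold, as both end exponential cultures lay below 12) and the Cox2 chaperone COX20 (1.85). Of the 3 translational activators of COX3, PET494 rose by 2.83, while PET54 (0.69) and PET122 (0.35) were not called. Of the other oxidase factors PET100, PET117 and PET191 rose, by 2.49, 1.75 and 2.01, while COX16 (0.92, adjusted p = 0.000329) and COA4 (0.92, adjusted p = 0.0264) stayed below a fold of 2. CBP3, CBP6, CBS2 and CBP1 rose among the 6 cytochrome b factors, CBP1 by at least 3.0-fold, as both end exponential cultures lay below 12. Both later complex III factors rose. For ATP synthase, the head chaperones ATP11 and ATP12 and FMC1 rose by 1.81, 1.68 and 1.97, while ATP22, ATP10 and ATP23, which serve the synthesis and assembly of Atp6, had log2 differences of -0.02, 0.04 and -0.41. OXA1, the general insertase of the inner membrane, had -0.04 (SE 0.33).

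Few differences were called within anaerobic SP. Between late and early anaerobic SP, limma called 1 of 42 genes, CBP1, which stabilizes cytochrome b mRNA, and called 0.0165% of all probe sets higher and 0.396% lower. CBP1 was at 19.0 and 16.5 in late SP, against 32.4 and 40.0 in early SP (log2 difference -1.02, SE 0.19, adjusted p = 0.0308). These signals are near the floor, and the call was lost in each of the 4 fits that left out 1 of the arrays compared. Of the 42 genes, 5 had an unadjusted p below 0.05. Among those not called, COX10 was at 244.5 and 203.1 in late SP, against 439.8 and 471.3 in early SP (-1.03, adjusted p = 0.0871), and was called without the 5 aerobic arrays with raised DAN1 (a fit with fewer arrays for the estimate of the spread). PET111 was at 38.5 and 38.7, against 77.9 and 79.5 (-1.03, adjusted p = 0.0732), and ATP23 had a difference of -1.0 (adjusted p = 0.0892). Late and early SP did not overlap in these 3 genes, although the adjusted p missed the threshold.

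**Figure D3:**
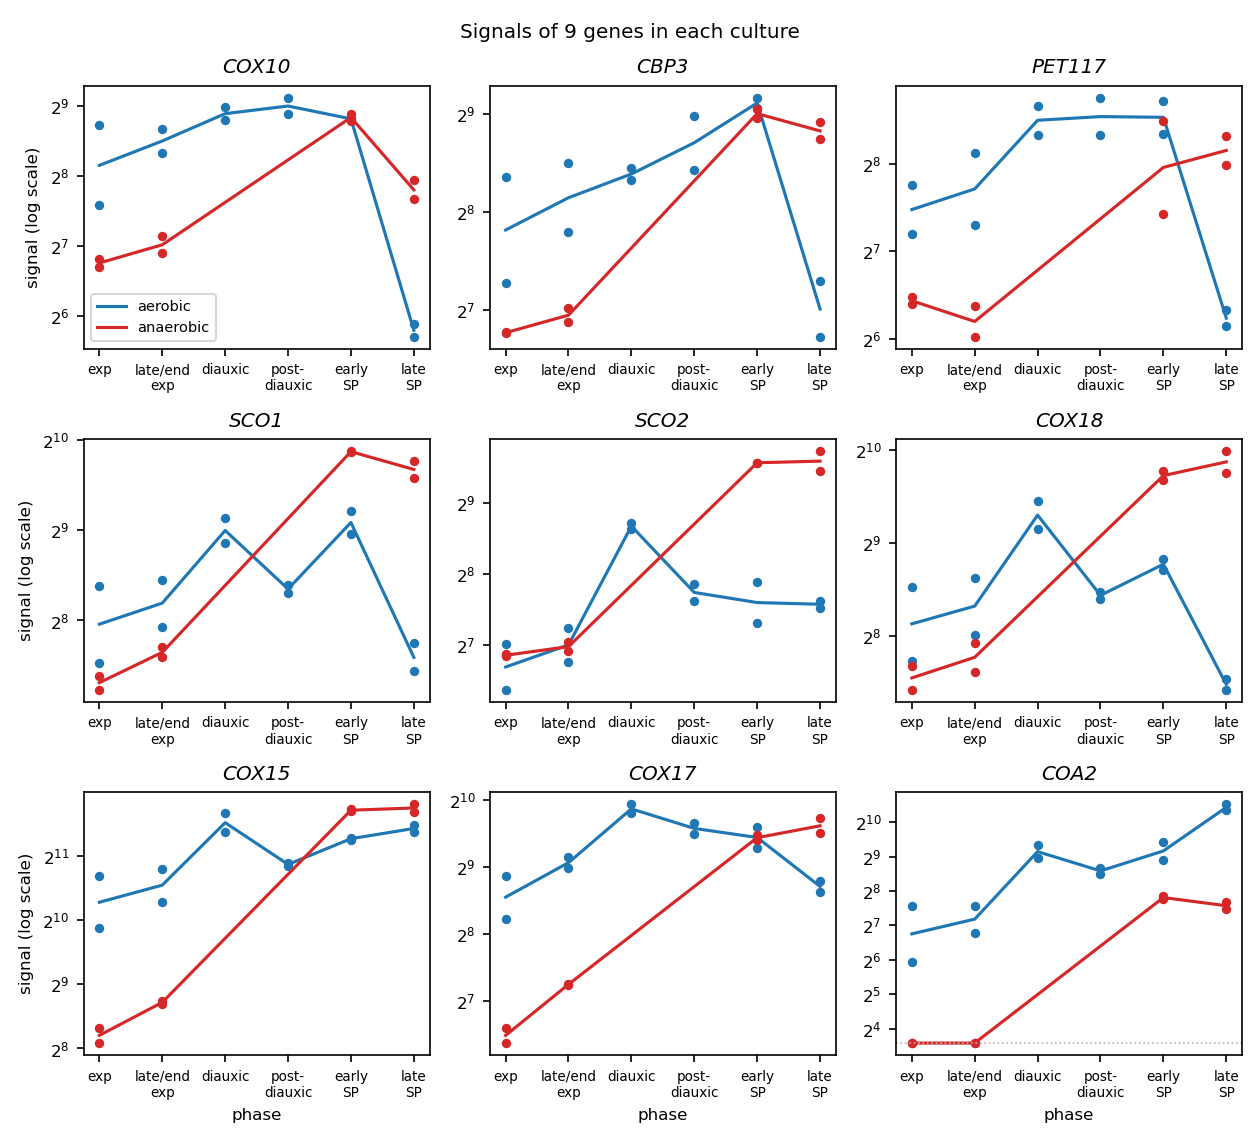
Signals of 9 genes (log axis) on each array (points) with geometric means (lines) in aerobic (blue) and anaerobic (red) cultures, by phase, where the anaerobic line spans the 2 phases that have no anaerobic sample and the dotted line for COA2 is the floor of 12. Anaerobic signals climbed between the end of exponential phase and early SP, and the aerobic signals of COX10, CBP3, PET117, SCO1 and COX18 were far lower in late than in early SP, whereas COA2 was highest in aerobic late SP.

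Aerobic cultures leave growth on glucose through the diauxic shift, when they turn to ethanol. There 14 of 42 (33.3%) rose relative to late exponential phase and 0 fell (limma, 26 at an unadjusted p below 0.05), against 19.4% higher and 12.7% lower over all probe sets. With quantile normalization, 10 rose and 0 fell, against 14.5% and 16.5%. The median log2 difference of the 42 was 0.78, against 0.17 over all probe sets. CBP4 was at 506.8 and 481.3 at the diauxic shift, against 111.2 and 134.1 in late exponential phase (log2 difference 2.02, SE 0.35, adjusted p = 0.000222). MSS2 was at 63.3 and 60.7, against 4.9 and 20.6 (1.98, SE 0.27, adjusted p = 2.68e-05), where 4.9 was set to the floor. COA2 was at 639.1 and 499.7, against 110.8 and 190.4 (1.96, SE 0.38, adjusted p = 0.000523). The groups did not overlap in these 3 genes.

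The other 11 genes that rose at the diauxic shift were PET494, COX19, PET100, SCO2, COX20, CBP1, PET191, COX11, COX14, COA1 and SHY1. This comparison and that of anaerobic early SP with the end of exponential phase use different arrays. All 14 genes called at the diauxic shift were also among the 31 called in anaerobic cultures, that is 100.0% of the shorter list and 45.2% of the longer one, where 73.8% of all 42 genes were on the longer list. Genes called only in the anaerobic cultures included both heme a enzymes, with aerobic log2 differences of 0.39 (COX10) and 0.98 (COX15, adjusted p = 0.00246, a fold of 1.97), and SCO1, which passes copper to Cox2, with 0.81 (adjusted p = 0.0125, under a fold of 2). Whether the anaerobic and aerobic changes differ in size was not tested for these genes.

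Through the respiratory phase few differences were called. Between the post-diauxic phase and the diauxic shift, limma called 0 of 42 genes, with 12 at an unadjusted p below 0.05, and called 7.42% of all probe sets higher and 3.54% lower. Between aerobic early SP and the post-diauxic phase it again called 0 of 42, with 11 at an unadjusted p below 0.05, against 6.81% higher and 11.5% lower over all probe sets. Without the 5 aerobic arrays with raised DAN1, these counts were 2 (SCO2 and PET100, both lower) and 1 (PET122, higher). By mean signal over the aerobic conditions, 16 genes were highest at the diauxic shift, 8 in the post-diauxic phase, 15 in early SP and 3 in late SP, and none in the growth phases on glucose. These ranks of means of 2 arrays were not tested, and no such count over all probe sets is given. They include OXA1, ATP22, ATP10 and CBP2, which were called in no comparison.

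Many of the factors fell in aerobic cultures between early and late SP. Of the 42 genes, 15 (35.7%) fell and 1 rose (limma, 25 at an unadjusted p below 0.05), where 16.4% of all probe sets were lower and 8.01% higher, and the median log2 difference was -0.67, against -0.22 over all probe sets. With scaling to housekeeping genes, 11 fell and 1 rose, against 12.2% and 9.8%. The 3' to 5' signal ratio of ACT1, a measure of RNA integrity, was 2.678 and 2.095 on the late SP arrays and 1.77 and 1.872 on the early SP arrays. That of SPT15 was also higher, at 5.196 and 6.807, against 3.478 and 3.673. That of SRB4 was lower, at 2.85 and 3.7, against 4.291 and 6.204. On the late SP arrays 1823 and 1847 features lay below 12, against 2279 and 2376. The part of these ratios and features in the fall was not tested. COX10, which makes heme O as the first step towards heme a, was at 52.3 and 59.3 in late SP, against 452.0 and 446.3 in early SP (log2 difference -3.01, SE 0.27, adjusted p = 1.48e-06). PET117, an oxidase assembly factor, was at 71.1 and 80.3, against 323.9 and 420.0 (-2.29, SE 0.33, adjusted p = 8.13e-05). CBP3 was at 106.2 and 156.7, against 533.0 and 572.2 (-2.10, SE 0.31, adjusted p = 8.95e-05). Late and early SP were clearly separated in all 3.

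The aerobic fall was uneven within pathways. Of the heme a pair, COX15 had 2879 and 2661 in late SP, against 2508 and 2448 in early SP, a log2 difference of 0.16 (SE 0.23) beside the -3.01 of COX10. In the copper relay SCO1 fell by 1.5 on the log2 scale, while COX17 (-0.73, adjusted p = 0.00774, under a fold of 2), COX19 (0.15) and COX23 (-0.42) were not called. The other genes that fell were ATP12, ATP23, FMC1, BCS1, SHY1, COX18, CBS1, CBS2, MSS2, PET309 and PET54, between 1.03 and 1.75 on the log2 scale. The gene that rose was COA2, at 1462 and 1297 in late SP, against 480.8 and 682.3 in early SP (log2 difference 1.26, SE 0.38, adjusted p = 0.0131). The COA2 call was lost without culture 1 of early SP or of late SP. Leaving out 1 array also ended the calls of PET309 (either culture 1), PET54 (late SP culture 1 or early SP culture 2) and MSS2 (late SP culture 1).

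In early SP, few differences between aerobic and anaerobic cultures were called. Here 4 of 42 genes were higher and 1 lower in aerobic than in anaerobic early SP (17 at an unadjusted p below 0.05 in limma), against 16.1% higher and 9.02% lower over all probe sets, a share below the background in both directions. With quantile normalization, 3 were higher and 2 lower, against 12.1% and 11.3%. Without the 5 aerobic arrays with raised DAN1, 5 were higher and 3 lower, and without anaerobic early SP culture 1 the total was also 8. The lower gene was SCO2, the paralog of SCO1, at 236.8 and 158.0 in aerobic and 756.0 and 758.7 in anaerobic early SP (log2 difference -1.97, SE 0.23, adjusted p = 8.22e-06). ATP23, a protease that trims Atp6 and also helps its assembly, was at 102.1 and 84.5 in aerobic and 28.4 and 33.2 in anaerobic early SP (1.60, SE 0.26, adjusted p = 0.000185). COA2 was at 480.8 and 682.3 in aerobic and 216.0 and 232.7 in anaerobic early SP (1.35, SE 0.38, adjusted p = 0.00912), a call lost without aerobic culture 2 (adjusted p = 0.0819) or anaerobic culture 1 (adjusted p = 0.0503) of early SP. The remaining 2 higher genes were COX23 (1.33) and PET309, at least 2.34-fold because both anaerobic cultures lay below 12.

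When the aerobic diauxic shift, which like anaerobic early SP follows the exhaustion of glucose, was set against anaerobic early SP, 6 of 42 genes were higher in the aerobic cultures and 0 lower (limma, 14 at an unadjusted p below 0.05), with 15.9% of all probe sets higher and 6.56% lower. With quantile normalization the counts were 4 and 0, against 11.1% and 8.76%. This comparison shares its anaerobic arrays with that of early SP. ATP23 was at 105.8 and 112.2 at the diauxic shift, against the anaerobic values given above (log2 difference 1.83, SE 0.26, adjusted p = 7.19e-05). PET309 was at 30.8 and 34.3, against 6.4 and 10.6 in anaerobic early SP, at least 2.71-fold (adjusted p = 0.000166). COA2 had a log2 difference of 1.33 (SE 0.38, adjusted p = 0.0108), a call lost without aerobic diauxic culture 1 (adjusted p = 0.0781) or anaerobic early SP culture 1 (adjusted p = 0.0583). COX11, COX23 and ATP12 made up the rest, with 1.02, 1.04 and 1.11. SCO2 had -0.89 here, at 419.9 and 396.2 in the aerobic cultures.

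In late SP the direction was turned relative to the growth phases. Of the 42 genes, 15 (35.7%) were lower in aerobic than in anaerobic late SP and 2 were higher (limma, 27 at an unadjusted p below 0.05), where 12.8% of all probe sets were lower and 18.2% higher. The median log2 difference was -0.63, against 0.08 over all probe sets. With quantile normalization, 16 were lower and 1 higher, against 17.2% and 13.6%, and with scaling to housekeeping genes 16 were lower and 2 higher, against 15% and 16.2%. The ACT1 ratio was 2.678 and 2.095 on the aerobic and 1.644 and 1.62 on the anaerobic late SP arrays. The SPT15 ratio was 5.196 and 6.807, against 4.349 and 4.682. The SRB4 ratio overlapped, at 2.85 and 3.7, against 3.396 and 3.667. On the aerobic arrays 1823 and 1847 features lay below 12, against 2702 and 2721. The part of these ratios and features in the result was not tested.

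COX18 had the largest decrease, at 185.1 and 171.5 in aerobic late SP, against 1015 and 865.0 in anaerobic late SP, a log2 difference of -2.40 (SE 0.25, adjusted p = 1.89e-06 from limma). SCO1 was at 173.0 and 214.5, against 875.8 and 764.9 (-2.09, SE 0.25, adjusted p = 6.51e-06). Its paralog SCO2, which is not essential for respiration, was at 184.3 and 196.3, against 698.2 and 848.2 (-2.02, SE 0.23, adjusted p = 5.43e-06). In these 3 genes the duplicates were close, and both aerobic cultures lay far below both anaerobic ones. COX10 was at 52.3 and 59.3, against 244.5 and 203.1 (-2.0, SE 0.27, adjusted p = 2.34e-05). PET117 was at 71.1 and 80.3, against 318.5 and 253.1 (-1.91, SE 0.33, adjusted p = 0.000229). FMC1, needed for the assembly of the ATP synthase head at raised temperature, was at 60.9 and 84.4, against 235.2 and 274.0 (-1.82, SE 0.22, adjusted p = 8e-06). CBP3 was at 106.2 and 156.7, against 427.2 and 481.2 (-1.81, SE 0.31, adjusted p = 0.000192), and again aerobic and anaerobic cultures did not overlap in any of these.

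The remaining 8 lower genes were SHY1, the Cox1 assembly factor whose human counterpart is SURF1, CBP6, PET100, the COX1 activator and Cox1 chaperone MSS51, the cytochrome b activator CBS2, PET494, BCS1, which inserts the Rieske protein into complex III, and COA3, a Cox1-binding regulator. Their log2 differences lay between -1.62 (SHY1) and -1.01 (COA3). COA3 and BCS1 lay just past a fold of 2 and were no longer called without aerobic late SP culture 1 or without anaerobic late SP culture 1. PET494 was not called without aerobic late SP culture 2. COX17, with a fold of 1.87 and an adjusted p of 0.00156, lay just on the other side.

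The 2 genes that were higher in aerobic late SP belonged to the translation and assembly of different oxidase subunits. COA2 was at 1462 and 1297, against 176.5 and 204.8 in anaerobic late SP (log2 difference 2.86, SE 0.38, adjusted p = 2.03e-05). It was the only one of the 42 that was called higher in aerobic cultures in all 5 comparisons with anaerobic cultures, with log2 differences of 3.17, 3.60, 1.33, 1.35 and 2.86 in exponential phase, end of exponential phase, diauxic shift against early SP, early SP and late SP. PET122, a COX3 translational activator, was at 28.4 and 34.5 in aerobic and 18.6 and 6.9 in anaerobic late SP (1.07, SE 0.37, adjusted p = 0.0244). Its signals were close to the floor, and the call was lost without the 5 arrays with raised DAN1 (adjusted p = 0.0587), with a floor of 1 (adjusted p = 0.121) or 30 (adjusted p = 0.212), with quantile normalization (adjusted p = 0.148), and without aerobic culture 1 (adjusted p = 0.0665), aerobic culture 2 (adjusted p = 0.138) or anaerobic culture 2 (adjusted p = 0.199) of late SP.

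**Figure D4:**
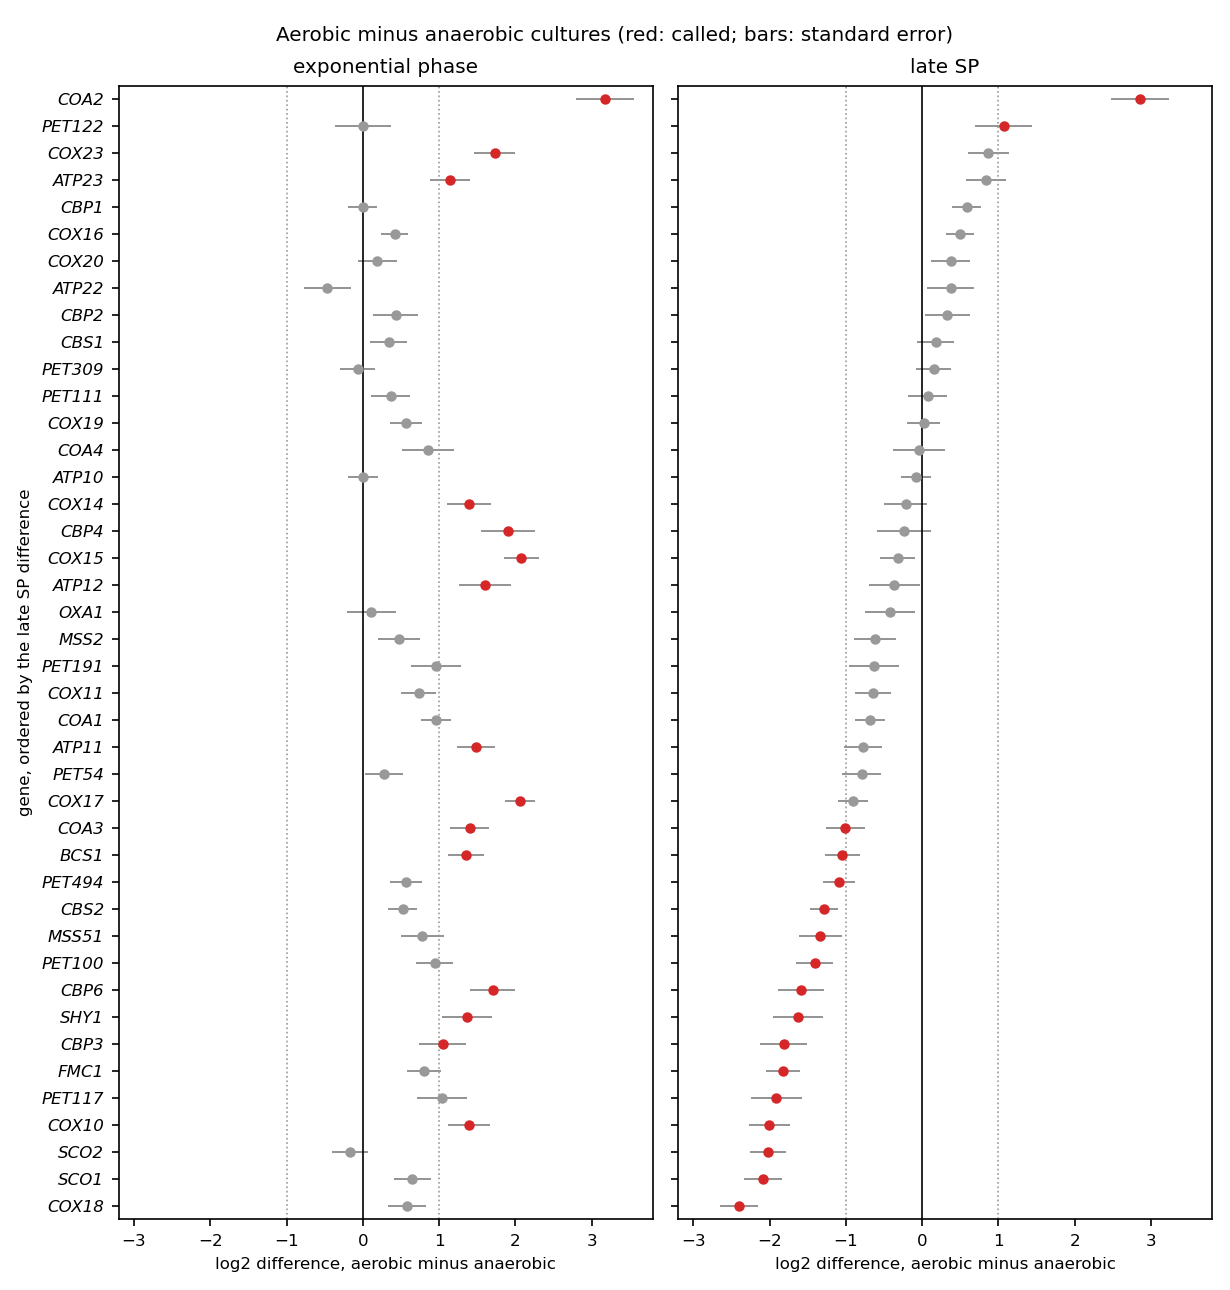
Log2 difference (aerobic minus anaerobic, points) with its standard error (bars) for each of the 42 genes in exponential phase (left) and late SP (right), with called differences in red, dotted lines at a fold of 2 and genes in the order of the late SP difference. Of the 15 genes called higher in aerobic exponential cultures, 6 were called lower in aerobic late SP, and COA2 stayed on the right in both panels.

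The exponential phase and late SP comparisons use different arrays, which by the labels come from the same batch cultures. Of the 15 genes lower in aerobic late SP, 6 (40.0%) were among the 15 higher in aerobic exponential phase, namely COX10, CBP3, CBP6, SHY1, BCS1 and COA3. This is near the 35.7% of all 42 genes that were higher in aerobic exponential phase, and COX10, CBP3, SHY1 and BCS1 lost that call without aerobic exponential culture 1. Whether the difference between aerobic and anaerobic cultures changed between these phases was tested as an interaction. It is the difference between late SP and exponential phase in aerobic cultures minus the same difference in anaerobic cultures. This term was negative and called for 26 of 42 genes (61.9%) and positive for 0 (limma, 28 at an unadjusted p below 0.05), with 14.2% of all probe sets negative and 19.1% positive. With quantile normalization it was negative for 28 and positive for 0, against 17.7% and 13.3%. The median of the 42 was -1.63, against 0.15 over all probe sets. It uses the same arrays as the exponential and late SP comparisons and is no separate evidence for either.

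COX10, CBP6 and SHY1 had the largest terms. COX10 had a term of -3.39 (SE 0.38, adjusted p = 9.34e-06), with signals of 52.3 and 59.3 in aerobic late SP and 420.7 and 191.4 in aerobic exponential phase, and with 244.5 and 203.1 in anaerobic late SP and 112.5 and 104.1 in anaerobic exponential phase. The aerobic cultures were thus lower, and the anaerobic ones higher, in late SP. CBP6 had -3.29 (SE 0.42, adjusted p = 2.81e-05), with 121.1 and 129.3 in late and 209.0 and 101.0 in exponential aerobic cultures, which overlapped, and with 329.5 and 428.2 in late and 42.6 and 46.8 in exponential anaerobic cultures. SHY1 had -2.99 (SE 0.46, adjusted p = 0.000138), with 80.9 and 98.1 in late and 124.3 and 46.7 in exponential aerobic cultures, and with 283.1 and 266.6 in late and 30.7 and 28.4 in exponential anaerobic cultures. Over the 42 genes the difference between late SP and exponential phase had a median of 0.12 in aerobic cultures, with 22 values above and 19 below 0. In anaerobic cultures it had a median of 2.0, with 37 above and 5 below 0.

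The terms of the roles ran from all genes to none. Both heme a enzymes and both later complex III factors were called negative, as were 5 of the 7 factors for COX1 translation and early Cox1 assembly, 4 of the 6 copper delivery genes, 3 of the 5 other oxidase factors, 3 of the 6 cytochrome b factors, 3 of the 6 ATP synthase factors, 2 of the 4 factors for Cox2 and 2 of the 3 COX3 activators. OXA1 had -0.53 (SE 0.46). COA2 had -0.31 (SE 0.54), with its anaerobic exponential level at the floor. COX19 (-0.55), COX23 (-0.86) and COX20 (0.19) were not called, and COX20 and COX19 were at similar levels with and without oxygen in late SP, COX20 at 1078 and 1114 in aerobic and 847.3 and 841.7 in anaerobic cultures, and COX19 at 299.8 and 208.0 in aerobic and 241.4 and 251.1 in anaerobic cultures.

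Some of the 42 genes were called in no comparison, which does not show that they did not vary. OXA1 lay between 307.8 and 587.4 on all 20 arrays, and ATP22, which activates translation of ATP6 mRNA, between 61.9 and 160.6, and neither was called in any of the 14 comparisons. The same held for ATP10, a chaperone of Atp6, and CBP2, which is needed to splice an intron of cytochrome b mRNA, but these were dim, with highest signals of 20.3 and 27.2, so that a difference below the floor could not be measured. COX16 and COA4, small proteins of oxidase assembly, were not called in any comparison either, but their signals did vary. Late SP minus exponential phase was 1.21 in aerobic and 1.13 in anaerobic cultures for COX16. For COA4 it was 0.35 and 1.24. These differences within a regime were not tested. COX16 lay between 43.2 and 190.3 and was higher on both aerobic than on both anaerobic arrays at every matched phase, with adjusted p-values of 0.00219 in early SP (log2 difference 0.80), 0.0303 in late SP (0.50) and 0.00244 at the end of exponential phase (0.91), each under a fold of 2. In all, 9 of the 42 genes had a highest signal below 100, namely ATP10, CBP1, CBP2, CBS1, CBS2, MSS2, PET111, PET122 and PET309, and most of these act on mitochondrial mRNAs.

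The other lists show how the subunits themselves compared. Of 9 complex III subunit genes, 9 cytochrome c oxidase subunit genes and 17 ATP synthase genes, 8, 8 and 15 were higher in aerobic than in anaerobic exponential cultures. Median log2 differences were 3.03, 2.75 and 1.75, and 1 oxidase gene, COX5B, was lower. Over all probe sets 5.08% were higher and 2.88% lower. The ATP synthase list includes INH1, STF1 and STF2, which encode regulators and not subunits. STF1 and STF2 were the ATP synthase genes not called. In anaerobic early SP all 9, all 9 and all 17 rose relative to the end of exponential phase, where 23.9% of all probe sets were higher and 23.8% lower. The complex III gene QCR8 was near the floor, at 45.7 and 53.1 in early SP, against 10.1 and 19.4 (adjusted p = 0.0271 from limma). It was also the complex III gene not called in exponential phase. In late SP, in contrast to the 15 lower assembly and translation factors, 0 complex III, 1 oxidase and 0 ATP synthase genes were lower in aerobic cultures. In the same order, 1, 2 and 0 were higher, and over all probe sets 12.8% were lower and 18.2% higher. The higher genes were QCR6 (1.44), COX5A (1.37) and COX12 (1.13), while COX5B, the isoform of subunit 5 used at low oxygen, had -3.04. The median differences were 0.01, 0.46 and -0.06. The difference between subunit and factor genes was not tested.

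General factors of mitochondrial translation serve all mitochondrial mRNAs. The list of these also includes RPO41, the mitochondrial RNA polymerase, and its initiation factor MTF1, which serve transcription and not translation. RPO41 is among the called genes in each of the counts below, with -1.10 in late SP, and MTF1 in none. Of 12 tested (13 listed), 7 were lower in aerobic late SP and 0 higher, with a median log2 difference of -1.12, where 12.8% of all probe sets were lower and 18.2% higher. Whether they differ from the gene-specific factors was not tested. The largest were RRF1, the ribosome recycling factor, with -1.93 (SE 0.31, adjusted p = 0.000119), GUF1, a translation GTPase, with -1.71 and AIM23, an initiation factor, with -1.60. In exponential phase 8 of the 12 were higher in aerobic cultures and 0 lower, against 5.08% and 2.88% of all probe sets. In anaerobic early SP 10 rose relative to the end of exponential phase, where 23.9% of all probe sets were higher and 23.8% lower. Among 28 further assembly and mitochondrial mRNA factors tested (32 listed), 6 were lower and 3 higher in aerobic late SP, against the same 12.8% and 18.2%. CYT2, which attaches heme to cytochrome c1, had -2.06, MZM1, a chaperone of the Rieske protein, -1.53 and NCA3 1.52.

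Among the regulators of respiratory genes, HAP4, the activating subunit of the Hap2/3/4/5 complex, varied with the same phases. It was at 742.8 and 219.4 in aerobic and 37.3 and 45.8 in anaerobic exponential cultures (log2 difference 3.29, SE 0.45, adjusted p = 9.78e-05), and again aerobic culture 2 was the lower of its pair. It was at 2264 and 2430 in anaerobic early SP, against 51.3 and 47.1 at the end of anaerobic exponential phase (5.58, SE 0.45, adjusted p = 6.79e-08). In late SP it was at 1423 and 1140 in aerobic and 2563 and 3053 in anaerobic cultures (-1.14, SE 0.45, adjusted p = 0.0436). ROX1, a repressor of hypoxic genes, was higher in aerobic cultures in all 5 comparisons, with 202.7 and 189.1 in aerobic and 20.8 and 17.4 in anaerobic late SP (3.36, SE 0.22, adjusted p = 1.12e-08). HAP1, a heme-responsive activator, has 3 probe sets, which disagreed in late SP. The brightest had -0.33 (adjusted p = 0.433) and another -0.38 (adjusted p = 0.456), whereas the third had 2.21 (adjusted p = 6.75e-07). Over all 7 regulators, 3 were higher and 1 lower in aerobic late SP, against 18.2% and 12.8% of all probe sets. This count uses the brightest HAP1 probe set, and by the third one HAP1 would be among the higher genes. Whether any of them acts on the 42 genes was not tested.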

How the data were processed

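RNA of 20 samples, taken over time from duplicate batch cultures of each regime, was hybridised to 1-colour Affymetrix YG-S98 arrays. The authors deposited 1 linear signal intensity per probe set and array (summary software not given in the sources used here), scaled to a trimmed mean of 240.2 to 240.3 on each array, so no further normalization was applied. Deposited gene annotation was read from the platform table, in which 6504 probe sets have 1 gene, 328 several and 2503 features are not listed, and symbols were updated by locus tag. Of 9335 features, 6647 probe sets of protein-coding genes were kept, signals below 12 were set to 12, and 580 probe sets with a highest signal below 20 were left out, leaving 6067. The log2 intensities were fitted with limma 3.58.1 (R 4.3.3) to 10 group means over all 20 arrays (10 residual and 4.732 prior degrees of freedom), with 14 contrasts and Benjamini-Hochberg adjustment over the 6067 probe sets. Differences were called at a fold of 2 or more with an adjusted p under 0.05. The test was checked on simulated data. "At least" folds apply where both arrays of a group lay below 12. The number of arrays, 2 per group, limits the precision. Culture numbers come from the labels, which number the batch cultures within each regime. Deviations of same-numbered arrays from their group means correlated with a median r of 0.121 in aerobic cultures (15 pairs of phases, -0.555 to 0.373) and 0.0935 in anaerobic cultures (6 pairs, -0.00273 to 0.179), so the numbers pair the arrays weakly. Aerobic late exponential arrays correlated at -0.555 with those of exponential phase and at -0.18 to -0.0178 with the later phases, and whether their numbers name the same cultures as elsewhere is not settled. The culture was tried as a fixed and as a random block.

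The members, roles and other gene lists were chosen with earlier results of these data known. Values were printed per array for the 8 called genes with the largest late SP difference, for those called against the majority there, and for the 3 with the largest difference in other comparisons. Alternatives were floors of 1 and 30, no filter or a minimum of 100, quantile normalization, scaling to 6 housekeeping genes, a fit of only the arrays compared, the blocks and each array left out. Leaving out the 5 aerobic arrays with raised DAN1, and a block with the 2 numbers exchanged at aerobic late exponential phase, were chosen after seeing the data. Figures were drawn with matplotlib 3.10.9 (Python 3.11.15). No sequences or genome coordinates were used here.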

Additional observations from a re-analysis of the deposited data

Results flagged for a closer look

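For 26 of the 42 genes the difference between late SP and exponential phase differed between aerobic and anaerobic cultures, tested as an interaction in limma with 2 cultures per condition. In all 26 the term, aerobic minus anaerobic, was negative, with adjusted p-values from 1.91e-06 (COX17) to 0.0342 (MSS2). Over all probe sets, 14.2% were called negative and 19.1% positive. This is the interaction already given in the main results, from the same arrays, and no separate evidence. For the oxidase, the terms on the log2 scale were -2.96 for COX17, -2.74 for SCO1, -1.85 for SCO2 and -1.38 for COX11 among the copper delivery genes, and -3.39 for COX10 and -2.40 for COX15 in heme a synthesis. They were -2.99 for SHY1, -2.41 for COA3, -2.12 for MSS51, -1.65 for COA1 and -1.61 for COX14 among the COX1 translation and Cox1 assembly factors. The Cox2 factors COX18 and MSS2 had -2.98 and -1.09, where both anaerobic and 1 of the aerobic exponential signals of MSS2 lay below the floor, and the COX3 activators PET494 and PET54 had -1.65 and -1.07. PET117, PET100 and PET191 had -2.95, -2.35 and -1.59. For complex III, the terms were -3.29 for CBP6, -2.86 for CBP3, -1.81 for CBS2, -2.40 for BCS1 and -2.15 for CBP4. For ATP synthase, they were -2.63 for FMC1, -2.26 for ATP11 and -1.97 for ATP12. The MSS2 call was lost with a floor of 30, with no filter, with a minimum signal of 100, with only the arrays compared and in 7 of the 8 fits that left out 1 array. The PET54 call was lost in 6 of those 8 fits and without the 5 aerobic arrays with raised DAN1, and the PET191 call in 2 of the 8 and with only the arrays compared.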

How the results depend on the processing

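In refits of the named genes, 491 values kept direction and call, 27 kept direction but lost the call and 0 turned direction. Counts of called genes that moved by more than 1.5 times were as follows. With only the arrays compared, the exponential phase count was 0 instead of 15 and that of the end of exponential phase 4 instead of 18, with fewer arrays to estimate the spread. Without the 5 aerobic arrays with raised DAN1 (chosen after seeing the data), early SP had 8 instead of 5, exponential phase 23, the post-diauxic phase against the diauxic shift 2 instead of 0, early SP against the post-diauxic phase 1 instead of 0, and anaerobic late against early SP 2 instead of 1. Early SP against the post-diauxic phase had 2 with quantile normalization and 1 with housekeeping scaling. The end of anaerobic exponential growth against exponential phase had 1 instead of 0 with a floor of 1. Anaerobic late against early SP (CBP1) had 0 with a floor of 1, with a minimum signal of 100, with quantile normalization, with housekeeping scaling, with only the arrays compared and with the replicate block (adjusted p = 0.0503). With each array left out in turn, the ranges were 5 to 8 (early SP), 8 to 24 (exponential phase), 0 to 6 (aerobic late exponential against exponential phase, 6 without exponential culture 1), 0 to 2 (post-diauxic phase against diauxic shift, 2 without post-diauxic culture 2), 0 to 4 (early SP against post-diauxic phase, 4 without early SP culture 1) and 0 to 0 (anaerobic late against early SP). The late SP count stayed between 14 and 18 and the interaction between 23 and 29 in all refits. The replicate block also lost CBP3 in exponential phase (14 called), the random block changed no call, and the block with exchanged numbers at aerobic late exponential phase added PET117 in exponential phase (16 called). The cause of these moves was not tested. Signals near the floor limit what can be said of PET122, PET309, ATP10, CBP1 and CBP2.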

Other observations

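In anaerobic cultures, the mean log2 signal was lower in late SP than in exponential phase for 5 of the 42 genes, with differences of -1.44 (ATP23), -0.57 (CBS1), -0.38 (ATP22), -0.24 (CBP2) and -0.04 (PET309). ATP23 was at 36.9 and 46.9 in exponential phase, 40.9 and 40.7 at its end, 28.4 and 33.2 in early SP and 16.1 and 14.7 in late SP, its lowest values. CBS1, a translational activator of cytochrome b mRNA, was at 24.0 and 26.9, 25.8 and 32.3, 16.6 and 29.6, and 16.1 and 18.3 in the same phases. Neither gene was called in the 3 comparisons within anaerobic cultures, and late SP against exponential phase was not tested in them alone. By mean signal over all 10 conditions, 15 of the 42 genes were highest in an anaerobic condition, 6 in early SP and 9 in late SP. This ranking was not tested, and no such count over all probe sets is given.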
